A study of Mus musculus with 4 samples.

Results

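The 9 genes of the interleukin-12 (IL-12) family were read from both expression matrices of the series: the cytokine subunits Il12a, Il12b, Il23a, Il27 and Ebi3 and the receptor chains Il12rb1, Il12rb2, Il23r and Il27ra. They are defined by name as the subunits and receptor chains of the family, and all 9 of the 9 are among the 32289 genes that each matrix lists. Single cells came from the mesenteric lymph nodes (mLN) of 12 untreated reporter mice aged 15 days with the genotype Gm38411-iCre-hCD2 R26 tdTomato. Every mouse carried both alleles, the iCre-hCD2 allele at Gm38411 and the Cre-dependent tdTomato allele at R26. In reporters of this kind tdTomato stays on in the descendants of a cell that once expressed the recombinase, whereas surface hCD2 follows the present activity of the allele. Cells inside a CD3-negative, B220-negative, CD11c-positive, MHC-II-positive and tdTomato-positive gate were sorted into an hCD2+ and an hCD2- fraction, both from the same mice, and each mouse had its own hashtag antibody. Each fraction was prepared as 1 library, so fraction and library preparation cannot be told apart.

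IL-12 family cytokines are heterodimers that share subunits. IL-12 pairs the Il12a product (p35) with the Il12b product (p40), IL-23 pairs the Il23a product (p19) with the same p40, and IL-27 pairs the Il27 product (p28) with EBI3. The receptors share chains in the same way: IL-12Rβ1 joins IL-12Rβ2 for IL-12 or IL-23R for IL-23, and the Il27ra product joins gp130, encoded by Il6st, for IL-27. Antigen-presenting cells are the known source of these cytokines. Natural killer (NK) cells and T cells are the textbook responders to IL-12, and type 3 innate lymphoid cells (ILC3) are textbook responders to IL-23.

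Because Il12b, Ebi3, Il12rb2 and Il23r each peaked in 1 cell class, and the last 2 lie side by side in the genome, their promoters are given here as RefSeq gives them on GRCm38.p6, each 5′ to 3′ on the gene's own strand, from 250 bases before the start to 50 bases after it. Capitals mark 1 kind of motif per window: the TATA box motif TATANAA in Il12b, the NF-kB motif in Ebi3 and Il12rb2, and AGGTCA, a core site of nuclear receptors, in Il23r, where the first match is on the opposite strand.
Il12b, chr11:44399813-44400112, plus strand: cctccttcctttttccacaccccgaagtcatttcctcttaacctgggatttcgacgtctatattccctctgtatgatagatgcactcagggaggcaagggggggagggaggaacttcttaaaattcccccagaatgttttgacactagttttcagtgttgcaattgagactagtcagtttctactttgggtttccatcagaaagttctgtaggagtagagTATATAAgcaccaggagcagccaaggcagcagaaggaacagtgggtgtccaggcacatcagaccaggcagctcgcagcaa
Ebi3, chr17:55952373-55952672, plus strand: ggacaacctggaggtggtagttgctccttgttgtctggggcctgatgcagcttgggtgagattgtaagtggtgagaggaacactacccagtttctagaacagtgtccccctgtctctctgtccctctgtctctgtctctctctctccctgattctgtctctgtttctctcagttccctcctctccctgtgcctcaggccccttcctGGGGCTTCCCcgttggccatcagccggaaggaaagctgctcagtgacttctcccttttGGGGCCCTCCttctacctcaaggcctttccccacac
Il12rb2, chr6:67376139-67376438, minus strand: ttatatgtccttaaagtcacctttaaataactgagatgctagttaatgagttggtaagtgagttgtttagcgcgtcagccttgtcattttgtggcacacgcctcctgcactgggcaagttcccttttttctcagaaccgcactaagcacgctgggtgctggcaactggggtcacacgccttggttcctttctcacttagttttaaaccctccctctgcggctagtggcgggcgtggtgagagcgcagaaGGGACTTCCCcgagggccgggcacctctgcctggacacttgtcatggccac
Il23r, chr6:67491806-67492105, minus strand: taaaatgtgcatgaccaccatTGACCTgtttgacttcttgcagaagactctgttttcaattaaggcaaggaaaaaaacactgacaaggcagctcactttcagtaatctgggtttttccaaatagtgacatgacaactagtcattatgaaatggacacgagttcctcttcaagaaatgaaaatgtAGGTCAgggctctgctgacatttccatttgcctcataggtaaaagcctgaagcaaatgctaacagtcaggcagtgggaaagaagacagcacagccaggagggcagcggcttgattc

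Both strands were searched. TATANAA stood at base 221 of the Il12b window and in 11.4% of all 32841 RefSeq promoters of the same length. The NF-kB motif stood at bases 207 and 265 of the Ebi3 window and at base 250 of the Il12rb2 window, and in 8.46% of all promoters. AGGTCA stood at bases 22 and 185 of the Il23r window and in 16.3% of all promoters. TTCNNNGAA, the STAT motif, stood at base 128 of the Il12rb2 window, where it is not capitalised, and in 8.30% of all promoters. The motifs TGANTCA (7.81% of all promoters), that of interferon response elements (3.44%) and GGTGTGA (3.98%) were not in these windows. A match is a run of letters, not evidence of binding. RefSeq promoters were matched for 5 of the 9 genes, and Il12a had 2 of them; none was matched for Il23a, Il27, Il12rb1 and Il27ra. In the GENCODE annotation of GRCm38, Il12rb2 occupies chromosome 6 from 67291318 to 67376188 and Il23r occupies the same chromosome from 67422932 to 67491855, both on the minus strand and 46.7 kb apart. In the same annotation 4 members overlap a gene on the opposite strand: Il27 overlaps Apobr, Ebi3 overlaps Gm16712, Il12rb2 overlaps Serbp1 and Il27ra overlaps Palm3. Whether counting used the strand is not given in the sources used here, so reads of these pairs may be mixed.

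After filtering, 7099 hCD2+ cells (median 17486 UMIs, or unique molecules, per cell) and 4762 hCD2- cells (median 23846) remained, with 365 to 897 cells per mouse in the hCD2+ fraction and 234 to 592 in the hCD2- fraction. The libraries shared 9 barcodes among the kept cells. The sort markers followed the labels, as hCD2 transcripts stood at 38.1 ± 6.08 CPM (UMI counts of the gene scaled to the mouse's total; SD, n = 12 mice) in the hCD2+ fraction and at 1.21 ± 0.589 in the hCD2- fraction. The tdTomato transcripts stood at 297 ± 36.5 and 314 ± 20.8 CPM. The labels call all cells dendritic cells (DCs). By marker genes, however, the clusters also held ILC3 or LTi-like (lymphoid tissue inducer), T cell-like and NK or ILC1-like cells, despite the CD3-negative gate. Cells were clustered without the 9 members and the 3 gene lists used below. Of 30 clusters 22 received 1 of 9 class names, and each name rests on markers, not on a deposited annotation. In 15 of the 18 class and fraction pairs every marker of the class was above the rest of its fraction. In the remaining pairs Esam and Cd7 were not above the rest in cDC2-like cells of either fraction, and Pigr and Itgb8 were not above it in the hCD2- cells of the Prdm16 or Aire DC-like class.

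Class sizes differed strongly between the fractions, which bears on every value below. The hCD2+ and hCD2- fractions held 524 and 951 CCR7 migratory DC-like cells, 1272 and 208 Prdm16 or Aire DC-like cells, and 183 and 912 cDC2-like cells. ILC3 or LTi-like cells numbered 3027 and 232, T cell-like cells 363 and 939, NK or ILC1-like cells 65 and 426, and cDC1-like cells 88 and 257. Levels are CPM of the summed counts of 1 mouse in 1 class, given only where the mouse had at least 10 cells of the class. Each level is compared across classes for the same gene, never between genes.

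**Figure D1:**
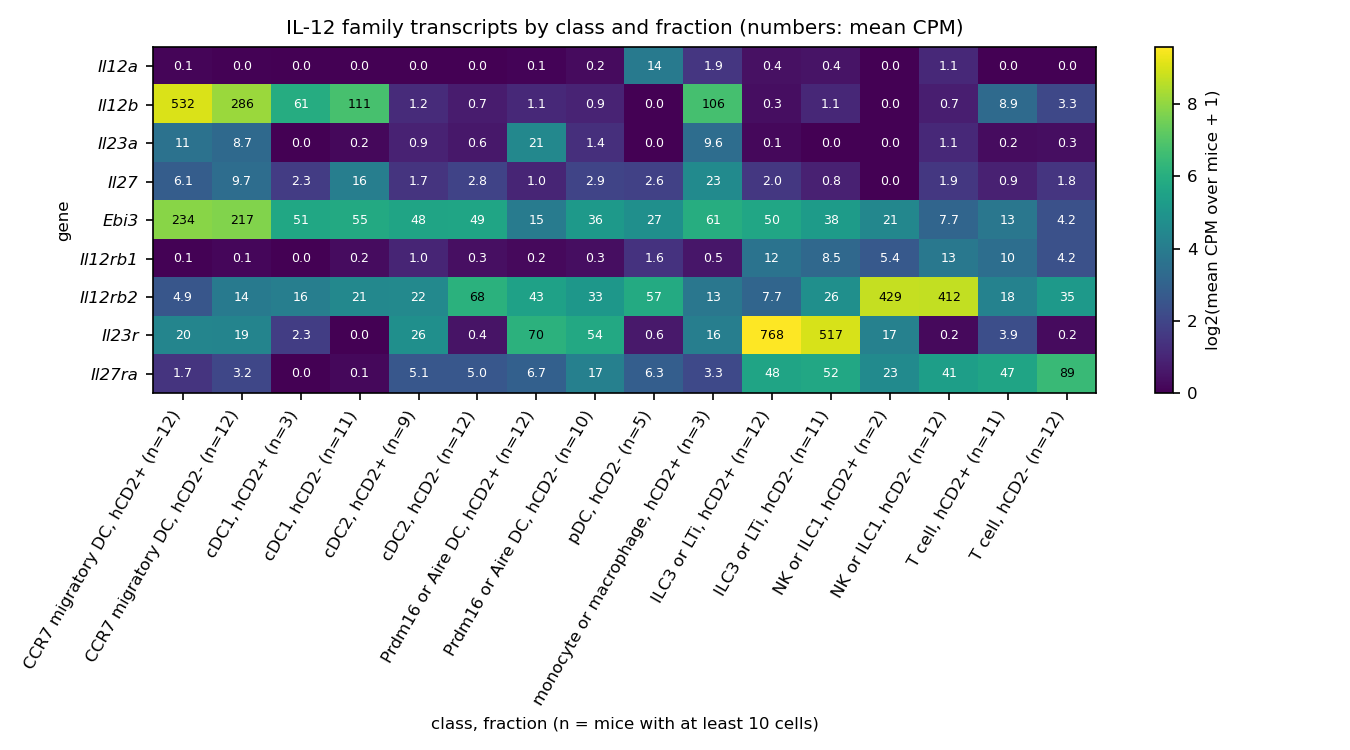
Mean level of each of the 9 genes (y axis) in each class and fraction (x axis, with the number of mice), coloured by log2(mean CPM + 1) and with the mean CPM printed in each cell. Il12b and Ebi3 peaked in CCR7 migratory DC-like cells, Il23r in ILC3 or LTi-like cells and Il12rb2 in NK or ILC1-like cells.

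Il12b, the p40 subunit shared by IL-12 and IL-23, was highest in CCR7 migratory DC-like cells, which carry the chemokine receptor that guides DCs to lymph nodes. Over 12 mice it ran from 75.9 to 852 CPM with a median of 512 in the hCD2+ fraction, and from 43.1 to 732 CPM with a median of 312 in the hCD2- fraction. The ranges of the fractions overlapped, and mice differed by an order of magnitude or more within each. The next class in the hCD2- fraction was cDC1-like cells, a lineage known for IL-12 production, with a range of 0 to 483 CPM and a median of 27.7 over 11 mice. That step was past the threshold (exact sign-flip permutation test over mice, two-sided, adjusted p = 0.0306 over 90 such tests between neighbouring classes). Il12b in CCR7 migratory DC-like cells was 8.89 ± 0.63 (SE) log2 units above cDC2-like cells in the hCD2+ fraction (edgeR quasi-likelihood test, adjusted p = 7.11e-19) and 8.96 ± 0.62 above them in the hCD2- fraction. The same cDC2-like cells had means of 1.24 and 0.652 CPM.

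Few cells carried most of the Il12b. The tenth of CCR7 migratory DC-like cells with the highest counts held 75.7% of the gene's UMIs in the hCD2+ fraction and 84.0% in the hCD2- fraction, with up to 493 and 342 UMIs in 1 cell. After thinning each cell to 5000 UMIs, 37.8% of hCD2+ (95% Wilson interval 33.6% to 42.1%) and 24.2% of hCD2- CCR7 migratory DC-like cells (21.5% to 27.1%) had an Il12b UMI, against 51.7% and 37.1% without thinning. In hCD2- NK or ILC1-like cells, which are not a known source, the share was 0.485% thinned and 1.64% unthinned, with median depths of 29541 UMIs in the hCD2- CCR7 class and 19886 in that class. Intervals on shares cover counting error only. In cDC1-like cells of the hCD2- fraction 10 cells had 10 or more Il12b UMIs, and 1 cell had 312.

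A smaller amount of Il12b was counted in T cell-like cells, with a mean of 8.86 ± 21.1 CPM over 11 hCD2+ mice. A single mouse at 71.5 CPM stood above the rest, of which the highest was at 12.3. Of 73 UMIs in that class, 56 fell in 1 cluster of 71 cells whose median depth was 77828 UMIs per cell over both fractions. In monocyte or macrophage-like cells of the hCD2+ fraction 1 of 3 mice had 319 CPM and the others had 0. Plasmacytoid DC-like (pDC-like) cells had no Il12b UMI in 5 mice.

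Ebi3, the shared partner of p28 in IL-27, was also highest in CCR7 migratory DC-like cells but varied far less among mice and cells. It ran from 184 to 281 CPM (median 241) in the hCD2+ fraction and from 148 to 276 CPM (median 219) in the hCD2- fraction. In both fractions every mouse of the class was above every mouse of the other classes with at least 6 mice. The step to the next class had an adjusted p of 0.00732 in each fraction (exact sign-flip permutation test), the smallest these tests gave. The 10% of cells with the highest counts held 37.2% and 36.3% of the UMIs.

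Unlike Il12b, Ebi3 was broadly present at a lower level. Means were 47.7 ± 9.83 and 49.0 ± 10.9 CPM in cDC2-like cells (9 and 12 mice), 49.6 ± 4.84 and 37.8 ± 13.3 in ILC3 or LTi-like cells (12 and 11 mice), and 14.9 ± 4.24 and 35.6 ± 12.7 in Prdm16 or Aire DC-like cells (12 and 10 mice). ILC3 or LTi-like and cDC2-like cells of the hCD2+ fraction could not be told apart (exact sign-flip permutation test, adjusted p = 0.738). The lowest class was T cell-like in the hCD2- fraction, at 4.17 ± 3.33 CPM over 12 mice. With each cell thinned to 5000 UMIs, 51.3% of hCD2+ and 50.1% of hCD2- CCR7 migratory DC-like cells had an Ebi3 UMI (84.9% and 78.9% unthinned), against 1.65% of hCD2- T cell-like cells (4.05% unthinned, median 17374 UMIs).

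**Figure D2:**
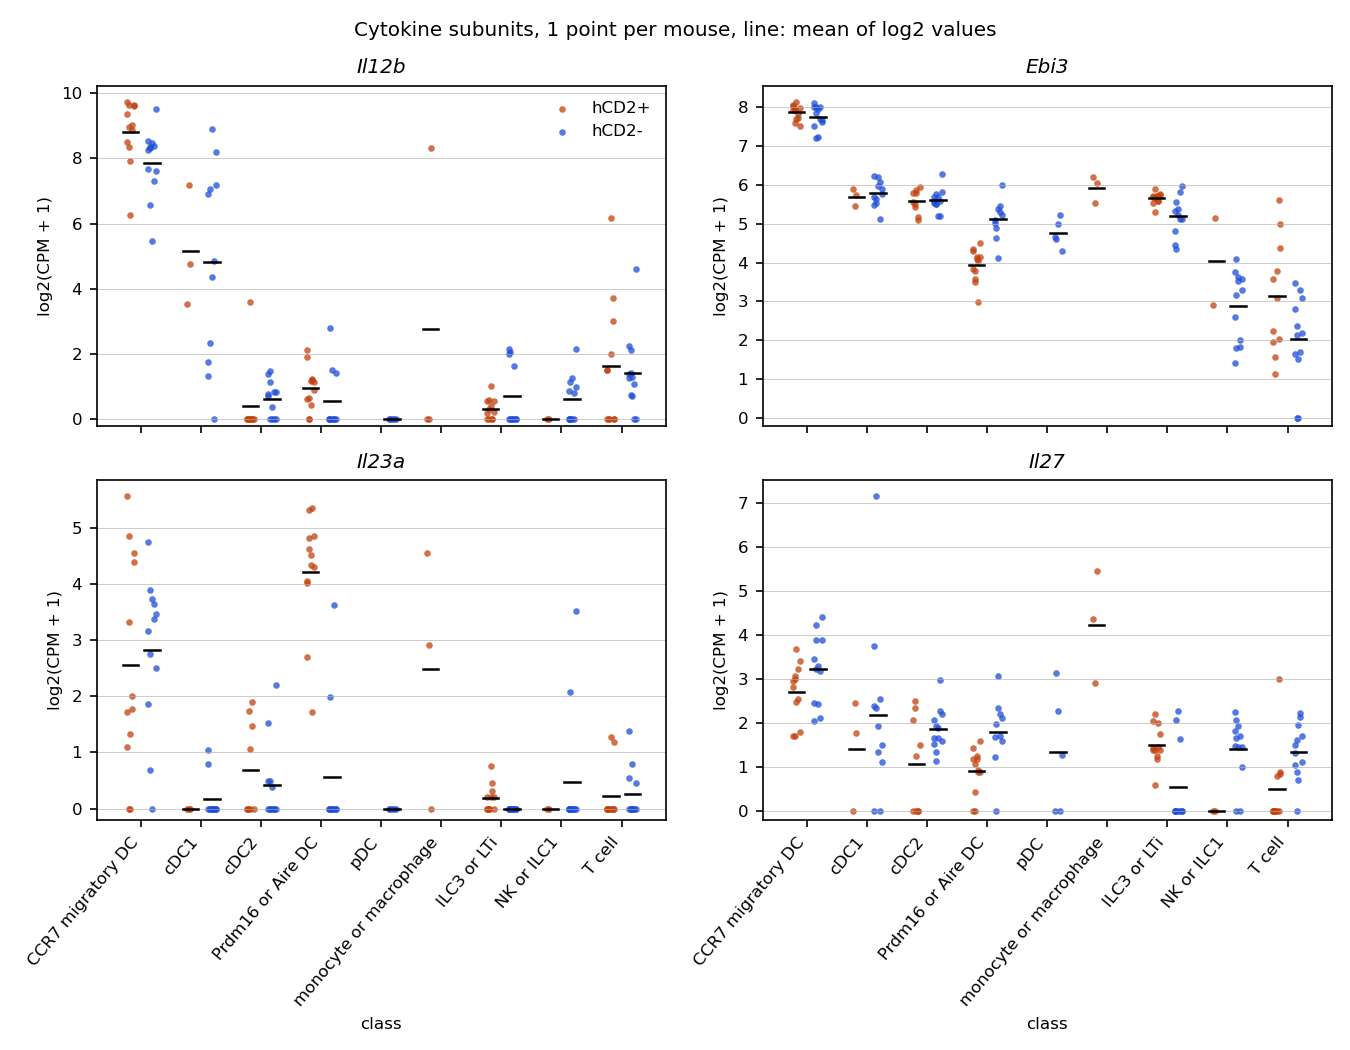
Level of Il12b, Ebi3, Il23a and Il27 as log2(CPM + 1) (y axis) by class (x axis), with 1 point per mouse and fraction and a line at the mean of the log2 values. Ebi3 points of CCR7 migratory DC-like cells form a tight group above all other classes, whereas Il12b points of the same class spread from 75.9 to 852 CPM (hCD2+) and from 43.1 to 732 CPM (hCD2-).

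Il23a, the p19 subunit that makes IL-23 specific, had a different distribution. It was highest in the hCD2+ cells of the Prdm16 or Aire DC-like class, where 12 mice ran from 2.30 to 39.8 CPM with a median of 20.5. In the same class of the hCD2- fraction 2 of 10 mice had any Il23a UMI, the higher at 11.3 CPM. CCR7 migratory DC-like cells had 0 to 46.5 CPM (median 2.72) in the hCD2+ fraction and 0 to 25.96 CPM (median 8.62) in the hCD2- fraction. In the hCD2+ fraction the Prdm16 or Aire DC-like cells were above these in 8 of 12 mice, which missed the threshold on CPM (exact sign-flip permutation test, adjusted p = 0.193) and passed it on log2(CPM + 1) (adjusted p = 0.0471). edgeR gave a difference of -0.31 ± 0.36 log2 units for CCR7 migratory against Prdm16 or Aire DC-like cells (adjusted p = 0.447), and with the mouse as a replicate block -0.80 (adjusted p = 0.0308). Against cDC2-like cells, at 0.878 CPM on average, Il23a was higher in both hCD2+ classes, by 4.22 ± 0.86 log2 units in CCR7 migratory and by 4.53 ± 0.82 in Prdm16 or Aire DC-like cells. Il23a was sparse per cell: 3.78% of hCD2+ Prdm16 or Aire DC-like cells had a UMI after thinning (9.83% unthinned), and a single cell held 76 UMIs. None of 2992 thinned hCD2+ ILC3 or LTi-like cells had one, which at the thinned depth allows a share of cells with a UMI of up to 0.1003%, while 0.231% had one unthinned, at median depths of 31066.5 and 16685 UMIs.

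Il27 and Il12a, the p28 and p35 subunits, were low. Il27 had means of 6.15 ± 3.04 and 9.73 ± 5.69 CPM in CCR7 migratory DC-like cells of the hCD2+ and hCD2- fractions, with ranges of 2.26 to 11.9 and 3.16 to 20.3 CPM over 12 mice each. In hCD2- cDC1-like cells the median over 11 mice was 2.82 CPM, but 1 mouse reached 143, and a single cell there held 69 Il27 UMIs. In all cells together only 24 Il12a UMIs were counted in the hCD2+ and 47 in the hCD2- fraction, so Il12a passed the low-count filter of edgeR in no comparison, and none of its 10 permutation tests between neighbouring classes with at least 6 mice passed the threshold. Of these, 31 UMIs fell in hCD2- pDC-like cells, whose 5 mice had 7.76, 8.56, 16.3, 18.2 and 19.2 CPM. Outside that class, means over mice stayed at or under 1.87 CPM. In the hCD2- fraction most Il12a UMIs thus fell in a class without Il12b UMIs, and CCR7 migratory DC-like cells, where Il12b was highest, had 3 Il12a UMIs in the hCD2+ and 1 in the hCD2- fraction.

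Pairs of subunits were also compared in the same cells after thinning. In the larger hCD2+ CCR7 migratory DC-like cluster (cluster 2, 313 thinned cells) Ebi3 was found in 75.0% of cells with Il12b and in 58.5% of the rest. Il12b was found in 53.3% of the 15 cells with Il23a and in 25.5% of the rest. In the hCD2- cells of the cluster (764 thinned cells) the corresponding shares were 67.3% and 50.2% for Ebi3, and 46.9% (of 32 cells) and 20.9% for Il12b. In the smaller cluster of the class (cluster 11) Ebi3 did not follow Il12b, with 30.2% of hCD2+ cells with Il12b and 34.5% of those without. Cells of 1 mouse are not replicates, so no test was made.

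These clusters of the CCR7 migratory DC-like class differed in their cytokine genes in the hCD2+ fraction, in a comparison chosen after the data were seen. In cluster 2 Il12b ran from 18.1 to 798 CPM (12 mice) and in cluster 11 from 134 to 1251 CPM (10 mice). Il12b was lower in cluster 2 by -1.08 ± 0.43 log2 units (edgeR, adjusted p = 0.0394, 8 of 10 mice), although DESeq2 gave an adjusted p of 0.0707. Ebi3 went the other way, at 251 to 389 CPM in cluster 2 and 66.1 to 158 CPM in cluster 11, with no overlap and a difference of 1.73 ± 0.13 (adjusted p = 1.52e-11, 10 of 10 mice). Il23a averaged 19.2 ± 24.0 CPM in cluster 2 and 0.128 CPM in cluster 11. Of 3 members tested 2 were called at an adjusted p under 0.05, against 45.5% of all genes tested.

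**Figure D3:**
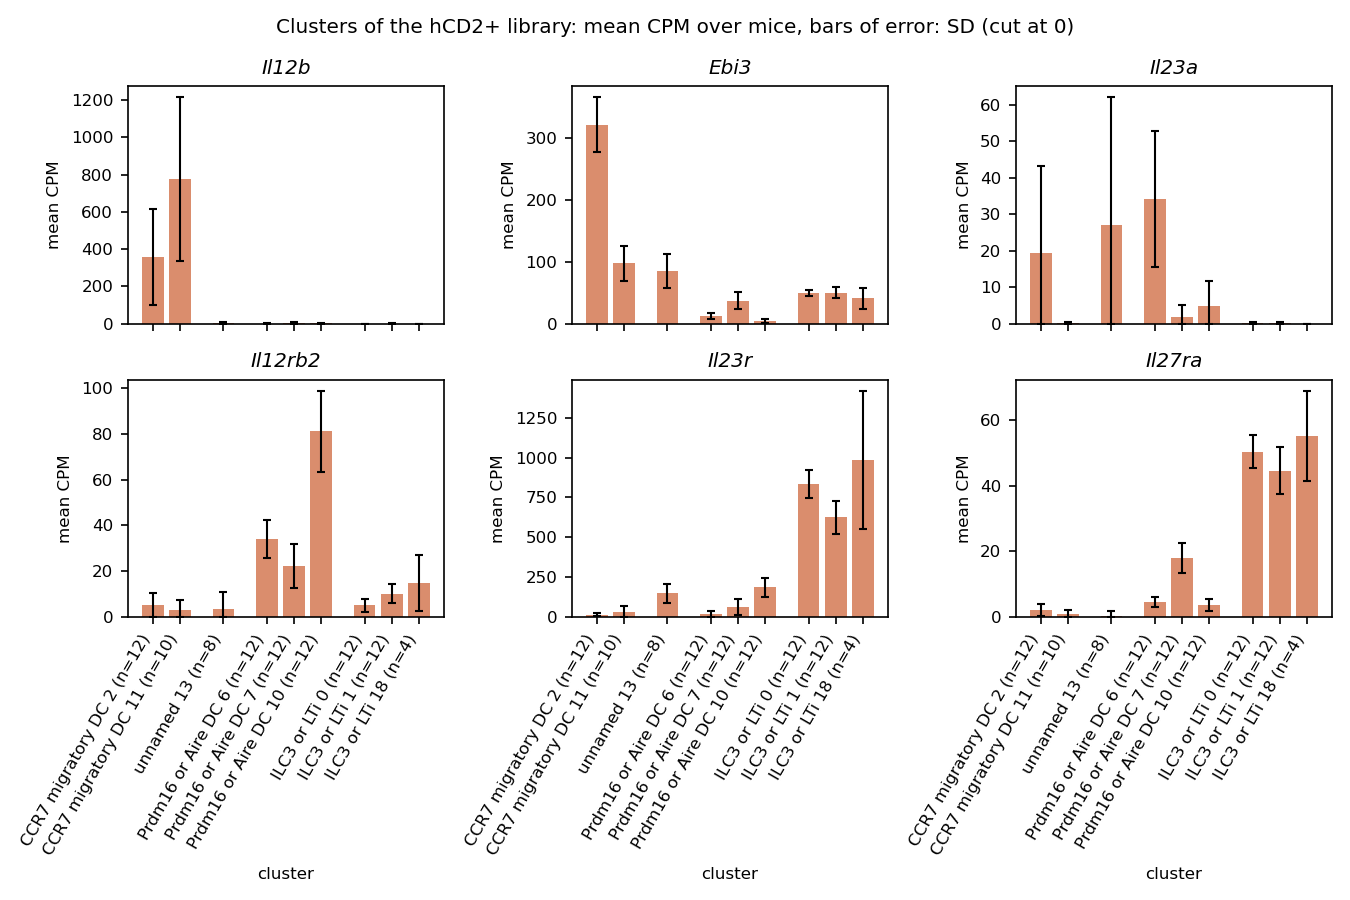
Mean CPM ± SD over mice (bars, y axis, linear from 0) of Il12b, Ebi3, Il23a, Il12rb2, Il23r and Il27ra in 9 hCD2+ clusters (x axis). Within the CCR7 migratory DC-like class Ebi3 was higher in cluster 2 and Il12b in cluster 11, and within the Prdm16 or Aire DC-like class Il23a stood out in cluster 6 and Il23r in cluster 10.

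Among the receptor chains, Il23r, the IL-23-specific chain, was highest in ILC3 or LTi-like cells. It ran from 647 to 935 CPM (median 742, 12 mice) in the hCD2+ fraction and from 232 to 678 CPM (median 537, 11 mice) in the hCD2- fraction. All mice of the class were above all mice of every other named class with at least 6 mice in the same fraction. In the hCD2+ fraction it was 7.86 ± 0.40 log2 units above T cell-like cells, and in the hCD2- fraction 10.57 ± 0.38 above them (edgeR). After thinning, 83.4% of hCD2+ ILC3 or LTi-like cells (95% interval 82.0% to 84.7%) and 68.4% of hCD2- ones (62.1% to 74.2%) had an Il23r UMI, and 93.4% and 78.4% did so unthinned. None of 907 hCD2- T cell-like cells (limit 0.331%) and none of 412 hCD2- NK or ILC1-like cells (limit 0.728%) had one at the thinned depth, and 0.426% and 0.469% had one unthinned. A cluster of 928 hCD2+ cells left unnamed for its low depth (cluster 3, median 2457 UMIs), in which ILC3 or LTi markers led, had 1553 ± 140 CPM over 12 mice.

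Il23r UMIs were also counted in DC-like classes, where doublets within a mouse were not called. Prdm16 or Aire DC-like cells had 28.2 to 93.4 CPM (median 74.0, 12 mice) in the hCD2+ and 11.9 to 114 CPM (median 36.7, 10 mice) in the hCD2- fraction. The tenth of these cells with the highest counts held 74.9% and 86.8% of the Il23r UMIs. Of the cells 5.66% and 5.77% had 10 or more. CCR7 migratory DC-like cells had medians of 17.0 and 15.9 CPM, carried by few cells. The tenth of them with the highest counts held 91.0% of the Il23r UMIs in the hCD2+ and 100% in the hCD2- fraction. Only 4 of 524 and 15 of 951 cells had 10 or more Il23r UMIs. In hCD2- cDC2-like cells the mean was 0.422 ± 0.761 CPM (12 mice), and CCR7 migratory DC-like cells were 5.46 ± 0.41 log2 units above them (12 of 12 mice). Against hCD2- cDC1-like cells, with no Il23r UMI in 11 mice, they were at least 63.8-fold higher, taking 3 counts over the group as the floor. Within the hCD2+ Prdm16 or Aire DC-like class Il23r averaged 189 ± 59.6 CPM in cluster 10, 63.8 ± 49.2 in cluster 7 and 21.5 in cluster 6. All pairs of these clusters differed in Il23r (log2 differences of -3.39 for cluster 6 against 10, -1.74 for 7 against 10 and -1.65 for 6 against 7). In clusters 6, 7 and 10 the tenth of cells with the highest counts held 90.2%, 83.5% and 46.6% of the hCD2+ Il23r UMIs. Il23r was not particular to the named DC-like classes. Cluster 13 (223 hCD2+ cells) was left unnamed, with 7 CCR7 migratory DC and 3 Prdm16 or Aire DC markers raised. In it 18.8% of hCD2+ cells had 10 or more Il23r UMIs, against 17.0% in cluster 10. For Il23a 1.79% had 10 or more, against 2.79% in cluster 6.

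Free RNA is a limit on low Il23r values in the hCD2+ fraction, where droplets of 10 to 100 UMIs held 365 CPM, against 34.1 CPM in the hCD2- fraction. A ceiling for free RNA in a class was set from the marker genes that were lowest there relative to the droplets, taking the fifth lowest ratio. It was 4.14 CPM in hCD2+ T cell-like cells, which had 3.20 CPM pooled and so stayed under the ceiling. Whether those counts were free RNA was not tested. The ceiling was 5.45 CPM for Prdm16 or Aire DC-like cells (68.9 CPM pooled), 3.06 CPM for CCR7 migratory DC-like cells (20.8 pooled) and 8.82 CPM for cDC2-like cells (28.8 pooled). In hCD2+ cDC2-like cells the mice ran from 2.19 to 70.5 CPM, and the tenth of cells with the highest counts held 98.8% of the UMIs. In 1 cluster of 41 of those cells (cluster 21) 5 cells held 97.0% of the cluster's UMIs.

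Il12rb2, the IL-12-specific chain, was highest in NK or ILC1-like cells. The 12 hCD2- mice ran from 311 to 495 CPM (median 413), and the 2 hCD2+ mice with enough cells had 381 and 477 CPM. No other class with at least 6 mice reached these values in either fraction. Below NK or ILC1-like cells, the hCD2- order was cDC2-like (68.0 ± 16.8 CPM, 12 mice) and then T cell-like cells (35.1 ± 16.0, 12 mice), each step with an adjusted p of 0.00732 (exact sign-flip permutation test), and Prdm16 or Aire DC-like cells could not be told apart from T cell-like ones (adjusted p = 1.0). The 5 mice with enough pDC-like cells averaged 57.2 ± 28.6 CPM. Among hCD2+ classes with at least 6 mice, which leaves out NK or ILC1-like cells, Prdm16 or Aire DC-like cells led at 43.4 ± 6.93 CPM (12 mice). They were above cDC2-like cells at 21.6 ± 11.2 (9 mice, exact sign-flip permutation test, adjusted p = 0.0195). In hCD2- cells NK or ILC1-like exceeded T cell-like by 3.49 ± 0.26 log2 units and ILC3 or LTi-like fell short of NK or ILC1-like by -3.97 ± 0.34 (edgeR).

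Il12rb1, the chain common to both receptors, was low in all classes with at least 6 mice. Means were 13.4 ± 5.22 CPM in hCD2- NK or ILC1-like cells (12 mice), 11.6 ± 4.07 and 8.50 ± 5.21 in ILC3 or LTi-like cells, and 10.2 ± 7.72 and 4.17 ± 2.80 in T cell-like cells of the hCD2+ and hCD2- fractions. Steps between neighbours among these classes did not pass the exact permutation tests (adjusted p from 0.103 to 0.738). In the hCD2- fraction edgeR placed both NK or ILC1-like cells (1.68 log2 units, adjusted p = 1.07e-06, 11 of 12 mice) and ILC3 or LTi-like cells (1.14, adjusted p = 0.00587, 7 of 11 mice) above T cell-like cells. No conventional, CCR7 migratory or Prdm16 or Aire DC-like class passed 0.975 CPM. A cluster of 137 hCD2+ ILC3 or LTi-like cells (cluster 18) stood at 46.0 ± 14.1 CPM over 4 mice. Among thinned hCD2+ ILC3 or LTi-like cells, Il23r was found in 86.4% of those with Il12rb1 and in 83.2% of those without, and in 67.1% of those with Il12rb2 and in 83.9% of those without.

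Il27ra, the IL-27-specific chain, was a gene of the lymphoid classes. In the hCD2- fraction T cell-like cells ran from 68.7 to 114 CPM (median 89.2), above ILC3 or LTi-like cells at 25.8 to 85.6 CPM (median 50.4; exact sign-flip permutation test, adjusted p = 0.00732). In the hCD2+ fraction the same classes had medians of 45.1 and 48.1 CPM and could not be told apart (adjusted p = 1.0). NK or ILC1-like cells of the hCD2- fraction had 40.6 ± 8.29 CPM. Among DC-like classes Prdm16 or Aire DC-like cells had the highest means in both fractions, at 6.67 ± 1.24 and 16.9 ± 7.76 CPM, and hCD2- cDC1-like cells had 0.146 CPM.

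**Figure D4:**
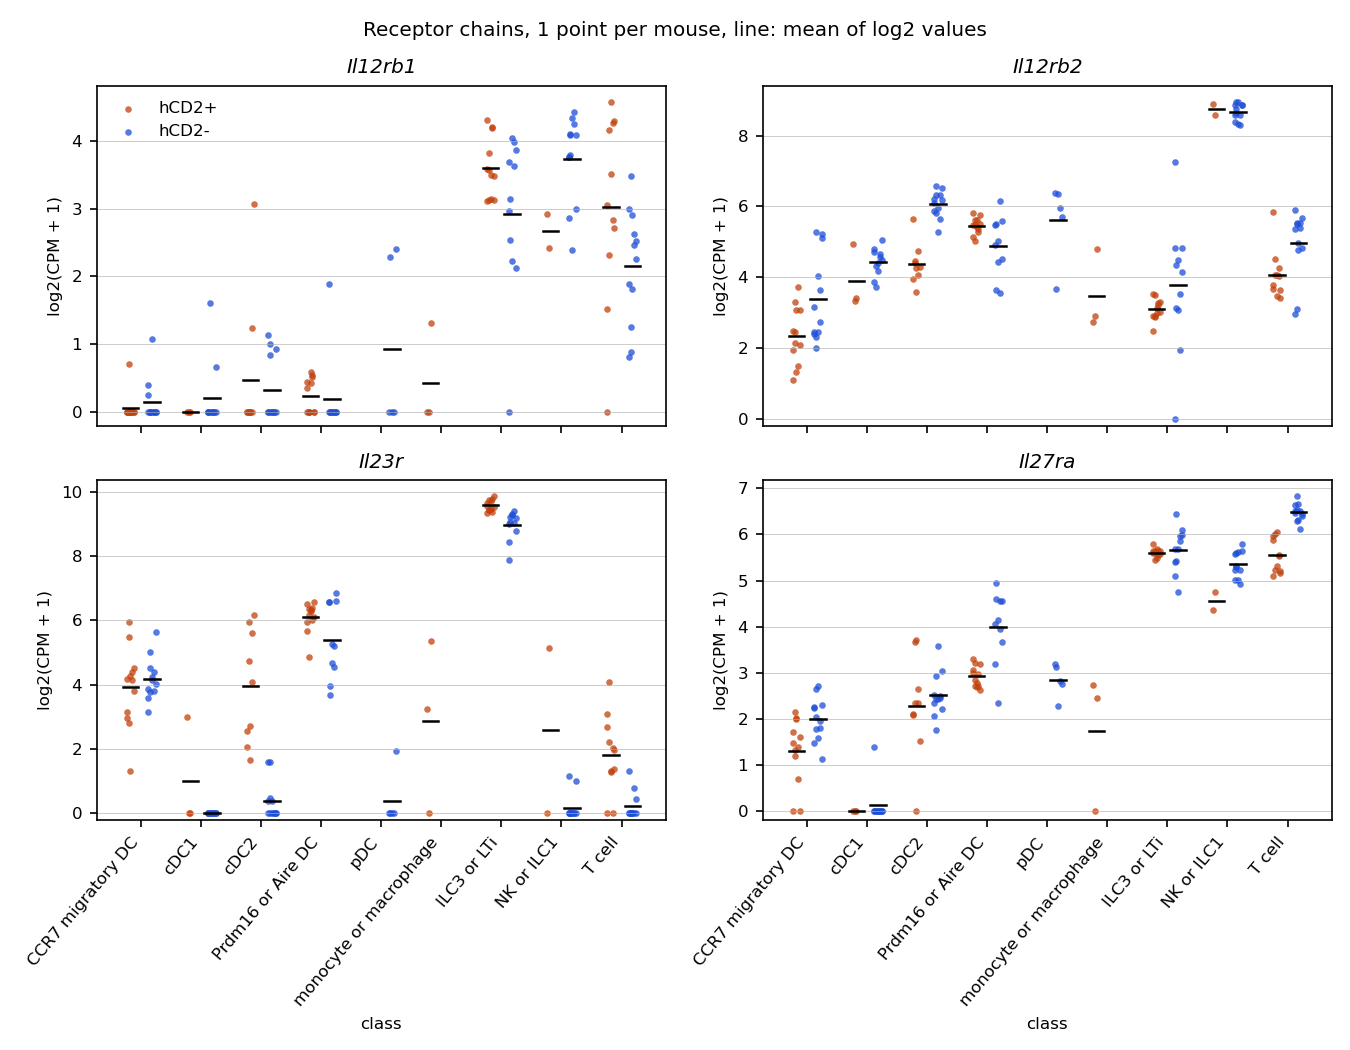
Level of Il12rb1, Il12rb2, Il23r and Il27ra as log2(CPM + 1) (y axis) by class (x axis), with 1 point per mouse and fraction and a line at the mean of the log2 values. Il23r points of ILC3 or LTi-like cells (232 to 935 CPM) and Il12rb2 points of NK or ILC1-like cells (311 to 495 CPM) lie above all other classes, and Il27ra is high in the 3 lymphoid classes.

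Between classes of the same fraction, most members that could be tested differed, as did most genes. In the hCD2+ fraction 6 of 7 members were called for CCR7 migratory against cDC2-like cells (3 higher, 3 lower; 67.5% of all genes), 5 of 7 for CCR7 migratory against Prdm16 or Aire DC-like (2 higher, 3 lower; 71.2%) and 4 of 7 for Prdm16 or Aire DC-like against cDC2-like (3 higher, 1 lower; 56.7%). Of the 3 lower in the first of these, Il12rb1 rested on 1 UMI in CCR7 migratory against 5 in cDC2-like cells. Its call was lost without the low-count filter (edgeR, adjusted p = 0.0611). Prdm16 or Aire DC-like against ILC3 or LTi-like cells gave 6 of 7 (2 higher, 4 lower; 75.5%) and ILC3 or LTi-like against T cell-like 4 of 7 (2 higher, 2 lower; 72.7%). In the hCD2- fraction CCR7 migratory DC-like cells gave 4 of 6 against cDC2-like (3 higher, 1 lower; 73.8%), 4 of 6 against cDC1-like (4 higher; 76.1%) and 5 of 6 against Prdm16 or Aire DC-like cells (2 higher, 3 lower; 65.0%). Prdm16 or Aire DC-like cells gave 3 of 6 against cDC2-like (56.5%) and 3 of 6 against ILC3 or LTi-like cells (52.6%), and cDC1-like cells gave 3 of 6 against cDC2-like cells (52.6%). Among the lymphoid classes, ILC3 or LTi-like cells gave 4 of 6 against NK or ILC1-like (55.0%) and 4 of 6 against T cell-like cells (60.9%), and NK or ILC1-like cells gave 3 of 6 against T cell-like cells (52.0%). The counts alone therefore show nothing particular to the family. The sizes differed by member: hCD2+ CCR7 migratory against Prdm16 or Aire DC-like cells gave 9.09 ± 0.46 log2 units for Il12b and -2.73 ± 0.23 for Il12rb2. Within ILC3 or LTi-like cells of the hCD2+ fraction, cluster 0 had more Il23r (0.38 ± 0.08) and Il12rb1 (0.65 ± 0.17) than cluster 1 and less Il12rb2 (-1.06 ± 0.25), 3 of 5 members called against 29.0% of all genes.

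The hCD2+ and hCD2- fractions were first compared over all cells of each mouse, where fewer cells of a class and less RNA per cell cannot be told apart. Of 8 members tested 6 were called, against 67.8% of all genes. Il23r ran from 205 to 466 CPM in the hCD2+ and from 12.9 to 53.1 CPM in the hCD2- fraction, without overlap, a difference of 3.52 ± 0.19 log2 units (edgeR, adjusted p = 2.95e-14, 12 of 12 mice). Il12rb2 ran from 17.2 to 29.98 and from 43.5 to 91.3 CPM, again without overlap and in the other direction (-1.61 ± 0.11, adjusted p = 8.81e-13, 12 of 12 mice). Il23a (1.57 ± 0.35) and Il12rb1 (1.05 ± 0.21) were also higher in the hCD2+ fraction, and Il27 (-1.02 ± 0.25) and Ebi3 (-0.34 ± 0.10) lower. Il12b (-0.13 ± 0.41, adjusted p = 0.799) and Il27ra (-0.10 ± 0.07, adjusted p = 0.214) did not pass the threshold. When each mouse's fractions were given the same mix of clusters, 2 of 7 members were called (4.98% of all genes): Il12rb2 at -0.64 (adjusted p = 0.0456) and Il27 at -0.83 (adjusted p = 0.0481). Under that mix Il23r stood at 0.62 (adjusted p = 0.113), and Ebi3 turned to 0.22 (adjusted p = 0.412).

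Within classes 9 of 19 tests of a member passed the threshold, where 4.22% to 52.2% of all genes did by class. In CCR7 migratory DC-like cells Il12b was higher in the hCD2+ fraction by 0.89 ± 0.32 log2 units (edgeR, adjusted p = 0.047, 11 of 12 mice), and it was the 1 called of 5 members tested, against 18.8% of all genes. The call did not hold with DESeq2 (0.90, adjusted p = 0.0628), without the low-count filter (0.88, adjusted p = 0.0659) or with finer clusters (0.60, adjusted p = 0.230). Cluster 11, the smaller cluster with the higher Il12b, made up 37.4% of the class in the hCD2+ and 15.0% in the hCD2- fraction. Within cluster 2 alone, a test chosen after the data were seen, Il12b differed by 0.46 ± 0.40 (adjusted p = 0.533) and Ebi3 by 0.46 ± 0.10 (adjusted p = 0.00359, 11 of 12 mice; 1 of 4 members called, 9.35% of all genes), whereas over the whole class Ebi3 differed by 0.11 ± 0.09 (adjusted p = 0.470). The 10 T cell markers summed to 2.43 to 22.5 CPM in hCD2+ and 13.8 to 92.7 CPM in hCD2- mice of this class, and the 6 erythroid markers to 4.83 to 7840 and 2.40 to 6.36 CPM. Their part in the result was not tested.

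In Prdm16 or Aire DC-like cells 3 of 5 members were called, against 50.8% of all genes. Il23a was 3.96 ± 0.76 log2 units higher in the hCD2+ fraction (edgeR, adjusted p = 8.93e-05, 10 of 10 mice), and Il27ra (-1.24 ± 0.21, adjusted p = 2.19e-05) and Ebi3 (-1.22 ± 0.20, adjusted p = 8.65e-06) were lower, each in 9 of 10 mice. Il12rb2 missed the threshold at 0.39 ± 0.19 (adjusted p = 0.0892) but passed it with DESeq2 (0.0424), without the low-count filter (0.0478) and with finer clusters (0.82, adjusted p = 0.00174). The cluster make-up of this class differed most between fractions: clusters 6, 7 and 10 held 50.7%, 21.6% and 27.7% of its hCD2+ cells but 0.962%, 92.3% and 6.73% of its hCD2- cells. Within cluster 7, tested after the data were seen, 0 of 3 members were called (3.95% of all genes): Ebi3 differed by 0.01 ± 0.22 (adjusted p = 0.997), Il12rb2 by -0.46 ± 0.28 (0.438) and Il23r by 0.89 ± 0.48 (0.366). Il23a and Il27ra did not pass the low-count filter there and were not tested. Levels in cluster 7 lay side by side in hCD2+ and hCD2- cells for Ebi3 (37.0 and 36.7 CPM) and Il27ra (17.9 and 18.4 CPM), and Il23a was low in both (1.86 and 0.321 CPM). In the hCD2+ fraction Il23a was instead a gene of cluster 6, at 34.1 ± 18.6 CPM, with 4.89 CPM in cluster 10. In this class the 10 cDC2 markers summed to 1287 to 1497 CPM in hCD2+ and 360 to 468 CPM in hCD2- mice, the 9 pDC markers to 579 to 802 and 272 to 409 CPM, the 7 B cell markers to 85.5 to 152 and 168 to 736 CPM, and the 6 erythroid markers to 12.6 to 2966 and 0 to 10.8 CPM. Their part in the results was not tested. Between clusters 6 and 7 all 4 members tested differed (63.7% of all genes), between 7 and 10 all 4 (64.7%) and between 6 and 10 it was 3 of 4 (66.0%).

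In cDC2-like cells Il12rb2 was lower in the hCD2+ fraction. The 9 hCD2+ mice ran from 10.9 to 49.3 CPM (median 18.5) and the 12 hCD2- mice from 37.7 to 94.8 CPM (median 69.4). Only the highest hCD2+ mouse fell within the hCD2- range, and the difference was -1.67 ± 0.22 log2 units (edgeR, adjusted p = 8.21e-06, 9 of 9 mice; 1 of 2 members called, 18.6% of all genes). Clusters 4, 19 and 21 held 48.1%, 29.5% and 22.4% of the hCD2+ cells of this class but 80.9%, 8.88% and 10.2% of its hCD2- cells. With thinned cells 10.4% and 23.4% had an Il12rb2 UMI (32.2% and 51.8% unthinned). The 10 ILC3 or LTi markers summed to 329 to 1005 CPM in hCD2+ and 315 to 527 CPM in hCD2- mice of this class, the 10 NK or ILC1 markers to 21.0 to 76.1 and 54.7 to 110 CPM, and the 6 stromal markers to 0 to 11809 and 0 to 3.61 CPM. The part of the cluster make-up and of these markers in the result was not tested.

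In ILC3 or LTi-like cells 2 of 5 members were called, against 4.22% of all genes. Il23r was 0.52 ± 0.12 log2 units higher in the hCD2+ fraction (edgeR, adjusted p = 0.00823, 11 of 11 mice), although finer clusters gave 0.47 with an adjusted p of 0.0712. The difference stood at 0.55 ± 0.12 within cluster 0 alone (adjusted p = 0.0124, 6 of 6 mice; 1 of 5 members called, 2.36% of all genes), a test chosen after the data were seen. Il12rb2 was lower in the hCD2+ fraction by -1.73 ± 0.41 (adjusted p = 0.0132, 8 of 11 mice), at 4.52 to 10.5 CPM against 0 to 150 CPM. That call was lost with the mouse as a replicate block (-1.34, adjusted p = 0.0743) and with finer clusters (-1.66, adjusted p = 0.0562). A single hCD2- cell of this class held 39 Il12rb2 UMIs, and the 10 NK or ILC1 markers, of which 1 was at 0 in the hCD2+ and 3 in the hCD2- cells, summed to 38.2 to 76.1 and 14.7 to 210 CPM. Their part in the result was not tested.

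In T cell-like cells both members tested were lower in the hCD2+ fraction, where 52.2% of all genes were called. Il27ra ran from 33.0 to 65.5 CPM (11 mice) against 68.7 to 114 CPM (12 mice), without overlap (-0.95 ± 0.12, edgeR, adjusted p = 1.45e-06, 11 of 11 mice). Il12rb2 differed by -1.05 ± 0.32 (adjusted p = 0.00825, 9 of 11 mice). Cluster make-up differed here too, with 1 cluster (cluster 25) at 19.6% of hCD2+ and 1.17% of hCD2- cells of the class. The 10 T cell markers summed to 3696 to 7940 CPM in hCD2+ and 6392 to 8174 CPM in hCD2- mice of this class, the 10 ILC3 or LTi markers to 125 to 536 and 89.9 to 227 CPM, and the 10 CCR7 migratory DC markers to 403 to 1299 and 472 to 777 CPM. Their part in the results was not tested. Within cluster 5, tested after the data were seen, neither was called (0 of 2 members; 0.937% of all genes), with Il27ra at -0.31 ± 0.12 (adjusted p = 0.457, lower in 8 of 8 mice) and Il12rb2 at -0.37 (adjusted p = 0.889). Between the 2 larger T cell-like clusters of the hCD2- fraction (5 and 9) the 1 member tested, Il27ra, was not called (-0.06 ± 0.11, adjusted p = 0.726; 27.5% of all genes were).

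**Figure D5:**
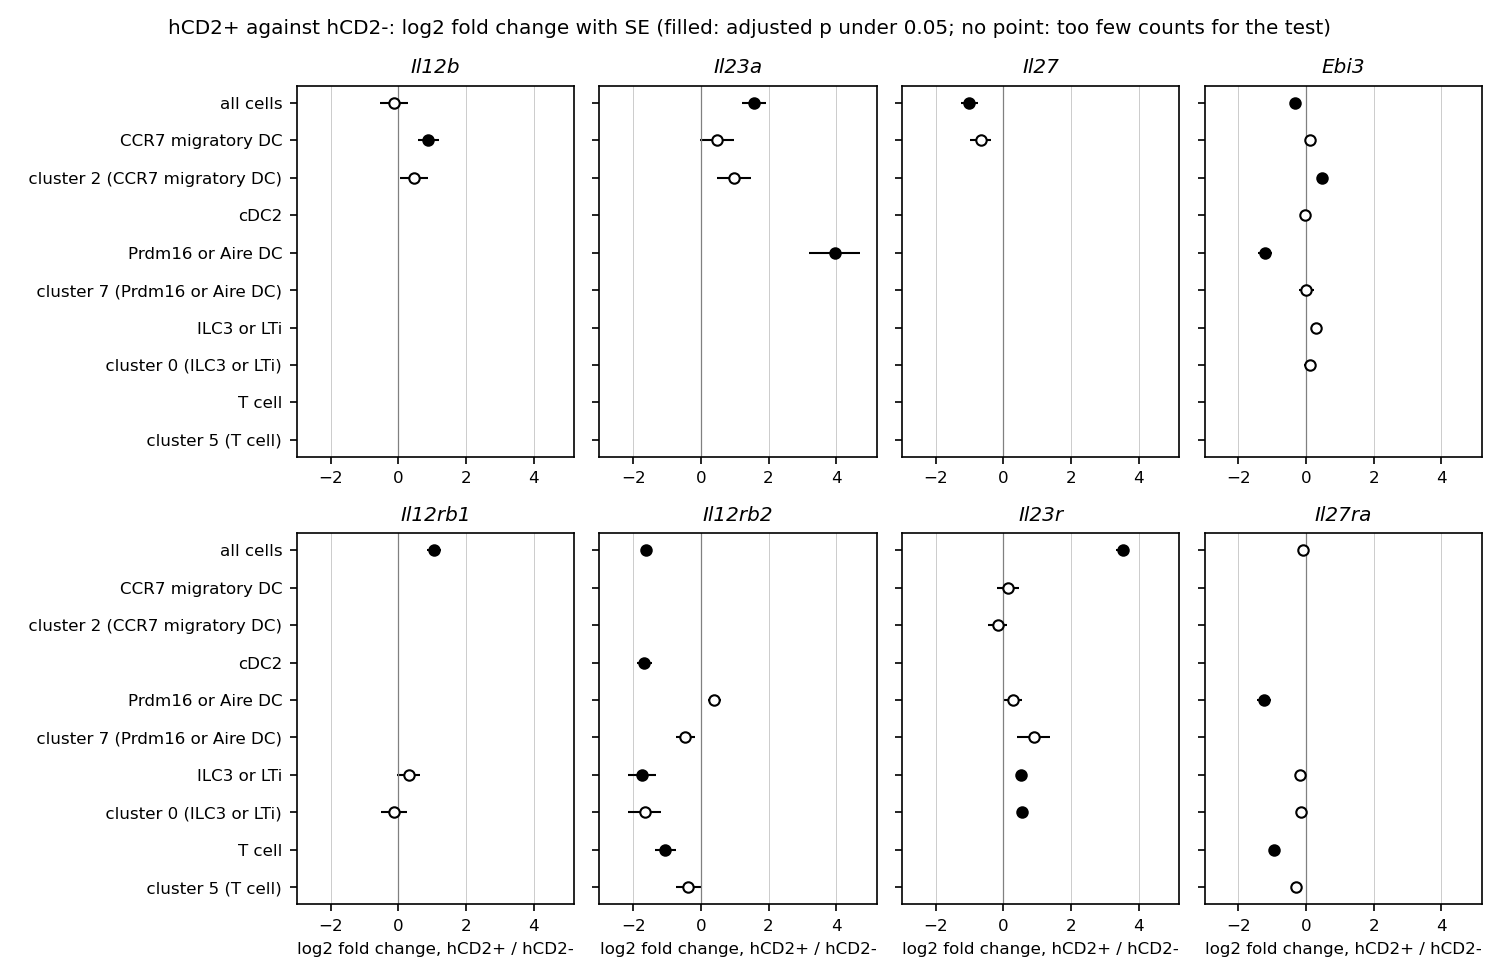
Log2 fold change of hCD2+ over hCD2- cells ± SE (x axis) of 8 members over all cells, within each class and within clusters 2, 7, 0 and 5. Filled points passed an adjusted p of 0.05, and the difference of Ebi3 in Prdm16 or Aire DC-like cells (-1.22) stood at 0.01 within cluster 7, where Il23a and Il27ra were not tested.

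The genes around the family were followed in 3 lists. The first held 10 signal transducers and their brakes, among them the receptor partner Il6st (gp130), the kinases Jak2 and Tyk2, the transcription factors Stat3 and Stat4 and the inhibitors Socs1, Socs3 and Ptpn2. Between hCD2+ CCR7 migratory and cDC2-like cells 7 of the 10 were higher and none lower, with Stat4 at 2.30 log2 units and Tyk2 at 2.29 and a list median of 0.83, against -0.08 over all genes tested and 30.9% of them higher. In the hCD2- fraction 9 were higher than in cDC2-like cells and all 10 higher than in cDC1-like cells (Stat4 at 5.08, Jak2 at 2.15), where 36.9% and 40.4% of all genes were higher. Between fractions, 5 fell and none rose in the hCD2+ cells of the Prdm16 or Aire DC-like class, including Socs3 (-2.13) and Jak2 (-1.21), with a list median of -0.29 against -0.04 over all genes, of which 25.6% were lower. In T cell-like cells 4 fell and none rose, including Stat4 (-0.85), with a list median of -0.34 and 24.1% of all genes lower. Within clusters 7 and 5 alone none of the 10 passed the test, where 3.95% and 0.937% of all genes did.

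The second list held 10 response genes, such as Il22, a product of ILC3 that acts on epithelium, Ifng, the signature cytokine of IL-12 responses, and the IL-18 receptor chain Il18r1. In ILC3 or LTi-like cells Il22 was the 1 of 6 tested that differed between fractions, where 4.22% of all genes did. It stood at 1478 CPM in hCD2+ and 761 CPM in hCD2- cells (0.90 ± 0.20 log2 units, edgeR, adjusted p = 0.00686, 11 of 11 mice). Within cluster 0 the difference in Il22 was 1.05 (adjusted p = 0.00381, 6 of 6 mice), the 1 called of 6 tested, against 2.36% of all genes. The list median was -0.02, against -0.01 over all genes. In hCD2- cells Ifng was -6.08 log2 units lower and Il22 10.60 higher in ILC3 or LTi-like than in NK or ILC1-like cells. In cDC2-like cells Il18r1 was 3.63 log2 units higher in the hCD2+ fraction, the 1 called of 3 tested, where 18.6% of all genes were called and the cluster make-up differed between the fractions as given above.

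The third list held 14 inducers of the cytokine genes, including the CD40 receptor, Toll-like receptor signalling genes and the transcription factors Irf4, Irf5, Irf8, Batf3, Rel, Relb and Nfkb1. Of 12 tested between CCR7 migratory and cDC2-like cells, 9 were higher and 2 lower in the hCD2+ fraction (Cd40 at 3.70, Relb at 2.10 and Traf6 at 2.09), and 10 were higher and 2 lower in the hCD2- fraction. The list medians were 1.47 and 1.49, and of all genes 30.9% were higher and 36.5% lower in the hCD2+ fraction, and 36.9% each way in the hCD2- fraction. Irf8, a factor known to act on the Il12b promoter, was the 1 of 12 that was higher in hCD2+ than in hCD2- CCR7 migratory DC-like cells, at 321 and 175 CPM (0.87 ± 0.17 log2 units, edgeR, adjusted p = 0.000583, 11 of 12 mice), and 4 others were lower, with a list median of -0.05 and 10% of all genes higher and 8.75% lower. Within cluster 2 alone Irf8 did not pass the test (0.12, adjusted p = 0.761). Irf8 also differed between the clusters of that class in the direction of Il12b, at 112 CPM in cluster 2 and 646 CPM in cluster 11 (-2.48). Irf4 (2.42) and Cd40 (1.65) were higher in cluster 2, as Ebi3 was. Of 9 inducers tested between these clusters 5 were higher and 3 lower in cluster 2, where 22.8% and 22.7% of all genes were. Their part in the levels of Il12b and Ebi3 was not tested. In Prdm16 or Aire DC-like cells Irf8 was 2.21 log2 units higher in the hCD2+ fraction, where Il12b averaged 1.13 CPM. Of 11 inducers tested there 5 were higher and 4 lower (25.2% and 25.6% of all genes). Within cluster 7 none of 9 was called, where only 3.95% of all genes were, with Irf8 at 0.42 (adjusted p = 0.607).

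Genes whose mean levels followed a member most closely were sought over 12 class and fraction points among 10488 genes, as a description of these points, which share libraries and depth. For Il12b these were Slc33a1 (Pearson r = 0.976) and Plagl2 (0.968), and for Ebi3 Epb41l2 (0.932) and Apaf1 (0.928). Il23a was followed most closely by Syngr3 (0.965). Among receptor chains, Il23r was followed by Rasl11a (0.977) and the chemokine gene Cx3cl1 (0.975), Il12rb2 by Itgad (0.933), Il12rb1 by Gimap1os (0.977) and Il27ra by Ets1 (0.985) and Fam8a1 (0.985). Rasl11a was among the genes used to cluster the cells.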

How the data were processed

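For each fraction the authors deposited 1 matrix of UMI counts (genes and hashtags by cell barcode), made with Cell Ranger 8.0.1 on mm10 per the submitters' processing notes. These counts were used as deposited. The members and gene lists were chosen with earlier results of these data known.

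Cells with exactly 1 hashtag, at least 500 genes and at most 10% mitochondrial counts were kept. Barcodes with several hashtags were removed as doublets, and doublets within a mouse were not called. The hCD2+ library had 8801 called cells, 7415 with 1 hashtag, and 7269488 to 17966298 UMIs per mouse. The hCD2- library had 5603, 4907 and 5914558 to 16238728. The number of deposited columns of other series was 0. Cells were clustered (scanpy 1.11.5, 2000 variable genes, 30 components, 15 neighbours, Leiden resolution 1.0). A cluster took a class name from at least 3 markers of 2-fold and 10% of cells. Named genes are the 9 members and, per list and comparison, up to 3 passing genes.

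Within each fraction, the counts of a mouse's cells of 1 class were added up (at least 10 cells, at least 6 mice per group) and tested with edgeR 4.0.16 (quasi-likelihood test, TMM, filterByExpr, Benjamini-Hochberg over all genes, threshold 0.05) in R 4.3.3. DESeq2 1.42.0, no low-count filter, cells thinned to 5000 UMIs, at least 20 cells, stricter cell filters (1000 genes, 5%), finer clusters (resolution 1.5), the same cluster mix and the mouse as a block were alternatives. On simulated data over all cells (13393 genes), 50 of 50 genes changed 2-fold were called, with 12 false calls among unchanged genes. The simulation drew unpaired samples with a fixed spread and changed only genes with enough counts in every mouse. It therefore gives no error rate for sparse members or for tests within classes. Levels of neighbouring classes were compared by exact sign-flip permutation tests.

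The hashtags mark the same animals in both fractions, which pairs the samples. Over 8810 genes, deviations of same-numbered samples correlated at 0.0537 to 0.524 (mean 0.357), over 0.1 in 11 of 12 pairs, against a mean of -0.0322 for other pairs. The same-numbered partner gave the highest correlation in only 7 of 12 cases.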

Additional observations from a re-analysis of the deposited data

Results flagged for a closer look

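Of 17 groups of 4 to 10 mice 2 had a mouse far from the others. Chance flags about 1 in 20 groups of normally distributed values, and the rate for sparse, skewed CPM was not tested. Il12rb2 in hCD2+ cDC2-like cells reached 49.3 CPM in the highest of 9 mice, with the next at 25.8. Il12b in the hCD2- cells of the Prdm16 or Aire DC-like class reached 5.95 CPM in the highest of 10 mice, with the next at 1.86.

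The effect of the fraction (hCD2+ against hCD2-) differed between classes for several members, tested as an interaction with edgeR in a fit chosen after the data were seen. Of 80 such tests 22 passed, of which 9 concern genes tested in both classes, and 3.07% to 40.4% of all genes passed, depending on the pair of classes. The effects given for single classes come from separate fits within each class. The differences come from the joint fit over classes, so subtracting the effects need not give them. For Il23a the effect in CCR7 migratory DC-like cells (0.47) was -3.58 log2 units from that in Prdm16 or Aire DC-like cells (3.96; adjusted p = 0.000966). For Ebi3 the effect in Prdm16 or Aire DC-like cells (-1.22) was lower than in CCR7 migratory DC-like (difference 1.23, adjusted p = 0.000226), cDC2-like (1.05, adjusted p = 0.00507) and ILC3 or LTi-like cells (1.52, adjusted p = 8.77e-05). For Il12rb2 the effect in Prdm16 or Aire DC-like cells (0.39) was above that in cDC2-like (difference -2.20, adjusted p = 6.42e-05), ILC3 or LTi-like (-2.12, adjusted p = 0.000784) and T cell-like cells (1.55 as Prdm16 or Aire DC-like minus T cell-like, adjusted p = 0.00433). For Il27ra the effect in ILC3 or LTi-like cells (-0.17) was 1.07 above that in Prdm16 or Aire DC-like cells (adjusted p = 0.000719) and 0.87 above that in T cell-like cells (adjusted p = 0.000305). The make-up by cluster of the Prdm16 or Aire DC-like, cDC2-like (cluster 4 at 48.1% of hCD2+ and 80.9% of hCD2- cells), CCR7 migratory DC-like and T cell-like classes differed between fractions, and its part in these differences was not tested.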

How the results depend on the processing

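Over all cells, 6 members differed between fractions, where 67.8% of all genes did. With the same cluster mix in both fractions 2 members did (4.98% of all genes), and Ebi3 turned from -0.34 to 0.22. Within classes, 9 members' tests passed (4.22% to 52.2% of all genes by class). Without the low-count filter 14 of 44 passed (2.21% to 28.4%), and with cells thinned to 5000 UMIs 4 of 10 did (1.53% to 36.4%). Between clusters of a class, 14 of 18 passed (27.5% to 66.0% of all genes), against 4 of 7 with thinned cells (20.7% to 63.9%). With thinned or unfiltered counts the number of genes that could be tested also changed. Of 89 called values, 543 alternative values were computed, of which 525 stayed called in the same direction, 17 lost the call and 1 reversed. With the mouse as a replicate block, 133 values kept their side of the threshold, and the count within classes was 8 (2.86% to 49.0% of all genes by class). Ebi3 in hCD2- Prdm16 or Aire DC-like against cDC2-like cells (-0.42, adjusted p = 0.0783) became called with the block (-0.47, adjusted p = 0.0486), as did Il12b in hCD2+ Prdm16 or Aire DC-like against ILC3 or LTi-like cells (2.06, adjusted p = 0.0277). Depth limits Il12a, which passed the low-count filter in no comparison, and Il27, which passed it over all cells and in CCR7 migratory DC-like cells. Each fraction was 1 library, and no deposited cell annotation was used.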
